A study of Mus musculus with 32 samples.

Results

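The 10 genes described here encode the GATA factors GATA1, GATA2 and GATA3 and 7 proteins that work with them: the cofactor FOG1 (gene Zfpm1), the basic helix-loop-helix factors TAL1 and LYL1, the bridging proteins LMO2 and LDB1, and the erythroid factors KLF1 and NFE2. They were taken by symbol from the 55487 gene identifiers of the deposited tables, and all 10 were among the 14869 genes that had enough counts to be tested. RNA came from 2 lines of mouse fetal liver progenitors immortalised with ER-HOXB8, a HOXB8 homeobox protein made dependent on estrogen, which holds myeloid progenitors in division. The line hi-77-/- had the genotype Gata2 -77-/-, that is, both copies of the -77 enhancer upstream of Gata2 were deleted, and is called mutant. The line hi-77+/+ kept that enhancer and is called wild-type.

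Each line was treated for 4 h with interferon gamma (IFNg, 1 ng/ml), with Pam3CSK4 (100 ng/ml), a lipopeptide ligand of the bacterial sensor formed by TLR1 with TLR2, with both agents, or with vehicle. All groups grew in medium with b-estradiol, SCF-conditioned medium and G418. Each of the 8 groups held 4 libraries, of 44.18 M to 71.42 M expected counts. Each genotype was represented by 1 line, and the labels do not give separate cultures or animals for replicate libraries, so the p-values rest on a spread that may be technical. Levels are CPM, a gene's counts per M counts of the library after TMM scaling, given as mean ± SD of n = 4 libraries unless single libraries are listed. Changes are log2 fold changes ± SE from edgeR's quasi-likelihood test, and a change is called where the Benjamini-Hochberg adjusted p over all genes tested was under 0.05.

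GATA factors are zinc finger proteins that bind the DNA letters GATA in promoters and enhancers. GATA2 acts in stem and progenitor cells and mast cells, GATA1 in red cells, megakaryocytes and mast cells, and GATA3 in T cells and innate lymphoid cells. In red cell precursors GATA1 binds beside TAL1, which pairs with an E protein, and LMO2 and LDB1 join the DNA-bound proteins into 1 complex. FOG1 binds GATA1 and GATA2 directly, and KLF1 and NFE2 work with GATA1 at globin and other red cell genes.

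All 12 genes on a list of myeloid progenitor markers (among them Cd34, Mpo and Myb) were at 1 CPM or more in both lines with vehicle. None of 8 hepatocyte genes reached 1 CPM there. Their summed level was 0.530 to 0.584 CPM in mutant and 0.224 to 0.357 CPM in wild-type libraries, and 3 of the 8 in mutant and 4 in wild-type cells had no counts. Of 11 B lymphoid markers, 8 were at 1 CPM or more in mutant and 7 in wild-type cells, with summed levels of 392.7 to 411.6 CPM in mutant and 70.4 to 78.3 CPM in wild-type vehicle libraries. Of 10 neutrophil markers, 4 in mutant and 9 in wild-type cells reached 1 CPM, and they summed to 54.8 to 60.7 CPM in mutant and 112.1 to 155.0 CPM in wild-type libraries. With vehicle, 9 of these 10 were called lower and 1 higher in mutant cells, with a median log2 fold change of -4.13. Of all genes tested 29.3% were called lower and 24.4% higher. Of 10 monocyte and macrophage markers, 7 in mutant and 8 in wild-type cells reached 1 CPM, and they summed to 724.0 to 808.2 CPM in mutant and 256.2 to 328.1 CPM in wild-type vehicle libraries. Of the 9 that could be tested, 5 were called higher and 4 lower in mutant cells with vehicle. Of all genes tested 24.4% were called higher and 29.3% lower there. Of 8 stromal and endothelial markers, 2 reached 1 CPM in each line, and they summed to 17.1 to 18.2 CPM in mutant and 33.5 to 42.2 CPM in wild-type vehicle libraries. The part of these cell type differences in the results below was not tested, and in bulk RNA fewer cells of a type and less RNA per cell cannot be told apart.

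The first question was how the 2 lines differed in these genes, with and without the agonists. Gata1, Gata2 and Klf1 were far lower in mutant cells, Gata3 was present in mutant cells and close to absent from wild-type cells, and the other partners differed less. With vehicle, 9 of the 10 genes were called, 2 higher and 7 lower in mutant cells, against 53.7% of all genes tested. Of all genes 24.4% were called higher and 29.3% lower. Under IFNg, Pam3CSK4 or the pair of agents all 10 were called, 2 higher and 8 lower each time. The shares of all genes called were 53.1% with IFNg (25.7% higher, 27.4% lower), 65.6% with Pam3CSK4 (32.1% higher, 33.5% lower) and 60.2% with both (30.5% higher, 29.7% lower). The CPM values of the 2 lines did not overlap for 8, 10, 9 and 10 of the genes with vehicle, IFNg, Pam3CSK4 and both agents, where the same held for 43.6%, 47.8%, 61.9% and 54.1% of genes.

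**Figure D1:**
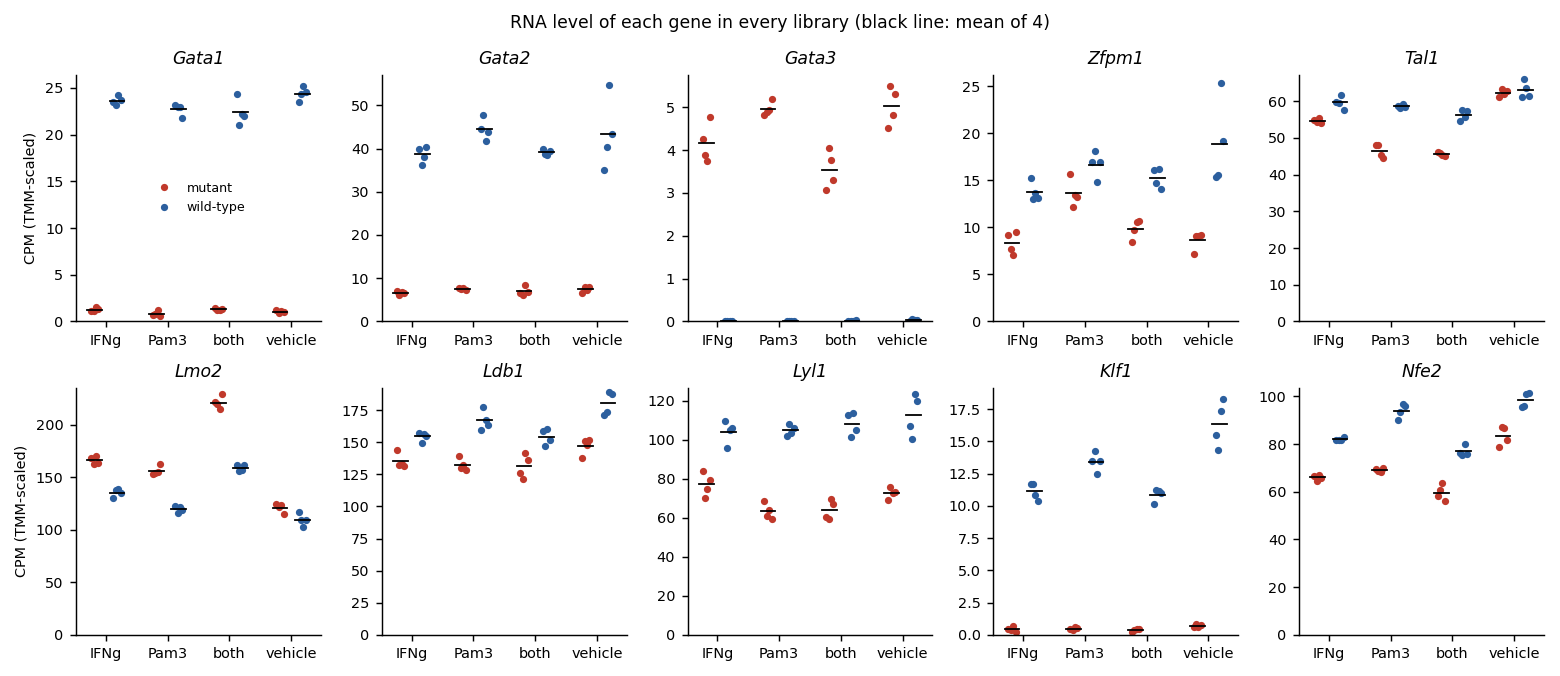
RNA level of the 10 genes in every library: each panel is 1 gene, the y axis is CPM after TMM scaling from 0, points are single libraries (red mutant, blue wild-type, 4 each) and black lines are group means; "Pam3" is Pam3CSK4 and "both" is IFNg with Pam3CSK4. Gata1, Gata2 and Klf1 sit near the bottom of their panels in mutant cells, at most 1.57, 8.42 and 0.812 CPM, Gata3 does so in wild-type cells, at most 0.0506 CPM, and Lmo2 is highest in mutant cells given both agents.

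The enhancer lost in the mutant line belongs to Gata2, so Gata2 (ENSMUSG00000015053.14, mm10 chromosome 6, 88193891 to 88207032, plus strand) also checks the labels. The 4 mutant vehicle libraries had 6.62, 8.03, 7.37 and 8.06 CPM, against 35.1, 40.4, 54.7 and 43.4 CPM in the wild-type vehicle libraries. Each mutant library was below each wild-type library, and the third wild-type library stood above the other 3. Gata2 was lower in mutant cells by a log2 fold change of -2.53 ± 0.10 (edgeR adjusted p = 1.01e-19), which left 5.78-fold less RNA. The log2 fold change was -2.55 ± 0.10 under IFNg, -2.55 ± 0.10 under Pam3CSK4 and -2.49 ± 0.10 under both agents.

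Neighbouring genes on chromosome 6 were also lower. Of 5 protein-coding genes within 250 kb of the Gata2 start, 4 could be tested and all 4 were lower in mutant vehicle libraries, where 29.3% of all genes were called lower. Rpn1, a subunit of the enzyme that attaches sugar chains to new proteins, lies at -88.6 kb from the Gata2 start and averaged 492.9 ± 1.18 CPM in mutant and 692.8 ± 25.8 CPM in wild-type cells (-0.49 ± 0.03, edgeR adjusted p = 2.98e-17). Eefsec, the elongation factor for selenocysteine, lies at 63.4 kb and changed by -0.41 ± 0.04 (edgeR adjusted p = 6.72e-10). Rab7, a small GTPase of late endosomes, changed by -0.27 ± 0.03. The linker histone gene H1fx was low in both lines, at 0.222 ± 0.0317 CPM in mutant and 0.889 ± 0.176 CPM in wild-type cells. Dnajb8 had no counts in either group.

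The promoters of the 4 genes with the widest difference between the lines are printed because GATA factors are known to act on their own and each other's genes, and because Gata1 and Klf1 were low together. Each is 250 bases before to 50 bases after a RefSeq start (GRCm38.p6), given 5′ to 3′ on the gene's strand, with matches to AGATAA or AGATAG or TGATAA or TGATAG on either strand in capitals. Of 32851 mouse promoters of this length, 29.8% held such a match. The Gata1 entry is chrX:7967861-7968160 (minus strand), the Klf1 entry chr8:84901732-84902031 (plus strand), the Gata3 entry chr2:9878551-9878850 (minus strand), and the 2 Gata2 entries are chr6:88193641-88193940 and chr6:88198414-88198713 (plus strand).
Gata1: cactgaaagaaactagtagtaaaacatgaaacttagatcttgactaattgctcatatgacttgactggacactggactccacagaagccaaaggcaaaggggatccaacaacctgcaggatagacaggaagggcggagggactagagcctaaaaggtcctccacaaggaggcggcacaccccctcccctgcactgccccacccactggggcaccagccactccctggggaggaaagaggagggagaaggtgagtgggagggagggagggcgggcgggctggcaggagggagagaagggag
Klf1: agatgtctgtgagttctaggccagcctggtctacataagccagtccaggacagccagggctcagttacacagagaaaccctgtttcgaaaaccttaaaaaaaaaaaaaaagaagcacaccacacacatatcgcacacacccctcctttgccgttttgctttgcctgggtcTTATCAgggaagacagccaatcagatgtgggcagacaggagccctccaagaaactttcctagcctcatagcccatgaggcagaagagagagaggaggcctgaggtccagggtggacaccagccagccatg
Gata3: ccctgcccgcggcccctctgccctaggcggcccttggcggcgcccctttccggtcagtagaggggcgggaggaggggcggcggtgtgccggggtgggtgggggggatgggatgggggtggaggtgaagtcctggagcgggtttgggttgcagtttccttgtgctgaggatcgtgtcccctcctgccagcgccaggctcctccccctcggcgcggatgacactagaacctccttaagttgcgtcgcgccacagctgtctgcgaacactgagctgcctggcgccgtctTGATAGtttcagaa
Gata2, upstream start: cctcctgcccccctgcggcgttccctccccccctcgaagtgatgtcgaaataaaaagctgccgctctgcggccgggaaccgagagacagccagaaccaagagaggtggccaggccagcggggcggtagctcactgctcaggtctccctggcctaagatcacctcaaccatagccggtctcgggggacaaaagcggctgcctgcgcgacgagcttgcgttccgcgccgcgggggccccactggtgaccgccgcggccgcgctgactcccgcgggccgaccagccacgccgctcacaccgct
Gata2, downstream start: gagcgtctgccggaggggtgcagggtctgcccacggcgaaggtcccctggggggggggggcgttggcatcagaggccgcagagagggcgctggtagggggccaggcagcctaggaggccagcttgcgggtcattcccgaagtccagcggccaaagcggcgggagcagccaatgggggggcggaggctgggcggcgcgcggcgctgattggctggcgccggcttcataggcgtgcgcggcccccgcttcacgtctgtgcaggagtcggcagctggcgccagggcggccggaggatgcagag

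The Klf1 window held 1 match, at position -80 from the start and read on the opposite strand, and the Gata3 window held 1 match on the gene's own strand at position 37. These letters were not in the Gata1 window or in either Gata2 window. Among the other genes, the first Tal1 entry held 1 match and the first Ldb1 entry held 2. RefSeq entries were found for 8 of the 10 genes, all but Lmo2 and Nfe2. A match describes letters only and was not measured as a binding site.

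Gata1 (ENSMUSG00000031162.14, chromosome X, 7959260 to 7978071, minus strand) drives red cell and mast cell maturation. The mutant vehicle libraries had 1.19, 0.897, 1.12 and 1.06 CPM, against 23.5, 24.4, 25.2 and 24.5 CPM in wild-type vehicle libraries. The ranges were far apart and narrow in both lines. The log2 fold change was -4.51 ± 0.10 (edgeR adjusted p = 4.99e-29), or 22.7-fold lower in mutant cells. It was -4.20 ± 0.10 under IFNg, -4.75 ± 0.11 under Pam3CSK4 and -4.12 ± 0.10 under both agents. The mutant values rest on 26 to 110 counts per library.

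Gata1 is on the X chromosome, and sex-linked genes differed between the lines. Xist, the RNA that coats an inactive X chromosome, averaged 479.5 ± 70.2 CPM in mutant and 0.0243 ± 0.0381 CPM in wild-type vehicle libraries. The 4 Y-linked genes Ddx3y, Eif2s3y, Kdm5d and Uty also averaged 1 CPM or more in mutant vehicle libraries. All 4 were lower in mutant than in wild-type cells, Ddx3y at 26.1 ± 0.936 CPM in mutant and 121.1 ± 11.03 CPM in wild-type cells. The part of this difference in the Gata1 result was not tested, and with 1 line per genotype the genotype and the line cannot be told apart.

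Klf1 (ENSMUSG00000054191.8, chromosome 8, 84901928 to 84905291), the zinc finger activator of adult beta-globin and many other red cell genes, followed the same order. It had 0.568, 0.812, 0.616 and 0.723 CPM in mutant vehicle libraries, against 15.5, 14.3, 17.4 and 18.3 CPM in wild-type vehicle libraries. Again the groups lay far apart. The log2 fold change was -4.60 ± 0.14 (edgeR adjusted p = 8.63e-25), and it lay between -4.87 ± 0.16 (both agents) and -4.58 ± 0.15 (IFNg) across the agonists. Klf1 had only 13 to 49 counts in each mutant library, which limits the precision of its changes within that line.

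Gata3 (ENSMUSG00000015619.10, chromosome 2, 9857078 to 9890034, minus strand) went the other way. The mutant vehicle libraries had 4.51, 5.49, 4.81 and 5.30 CPM, against 0.000, 0.0506, 0.0321 and 0.0238 CPM in wild-type vehicle libraries. In counts these were 1154 over the 4 mutant libraries and 6 over the 4 wild-type libraries, a ratio of 178.7 with a 95% interval of 81.8 to 487.9 that covers counting error only. With IFNg the counts were 943 in mutant and 1 in wild-type cells (ratio 1024, interval 183.4 to 40490). With Pam3CSK4 they were 1046 in mutant and 3 in wild-type cells (ratio 382.7, interval 130.6 to 1859), and with both agents 814 in mutant and 3 in wild-type cells (ratio 280.2, interval 95.5 to 1361). All 4 comparisons were called (largest edgeR adjusted p = 1.08e-22), and no mutant library overlapped a wild-type one.

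Gata3 is best known from T cells and innate lymphoid cells. Of 12 markers of those cells, 2 (Thy1 and Lck) were at 1 CPM or more in both lines, 1 in mutant and 6 in wild-type cells had no counts, and the list summed to 54.1 to 57.1 CPM in mutant and 41.0 to 43.7 CPM in wild-type vehicle libraries. Thy1 made up most of that sum, at 52.6 ± 1.14 CPM in mutant and 38.8 ± 0.906 CPM in wild-type cells. Cd3e, a chain of the T cell receptor complex, had no counts in either line. It was the only marker of the 12 without counts in mutant cells. Of that list 3 genes could be tested. Thy1 and Tcf7 were called higher and Lck, a kinase of T cell receptor signalling, lower in mutant cells in all 4 treatments. Between 53.1% and 65.6% of all genes tested were called in those comparisons. The shares ran from 24.4% to 32.1% for higher and from 27.4% to 33.5% for lower genes. With vehicle Lck averaged 1.96 ± 0.0706 CPM in mutant and 3.62 ± 0.338 CPM in wild-type cells (-0.88 ± 0.10, edgeR adjusted p = 1.59e-09). The gene 9230102O04Rik runs on the same strand and shares 77 exonic bases with Gata3. It averaged 0.153 CPM in mutant and 0 CPM in wild-type vehicle libraries. Gm13256, on the opposite strand, shares 155 exonic bases with Gata3 and averaged at most 0.00472 CPM in a mutant group and 0 CPM in every wild-type group.

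Per kilobase of transcript, a scale that allows genes to be set against each other, GATA RNA differed in amount and in make-up. The summed level of Gata1, Gata2 and Gata3 was 4.91 ± 0.314 CPM per kb in mutant and 29.5 ± 3.24 CPM per kb in wild-type vehicle libraries. Mutant cells had 0.637 ± 0.0746 CPM per kb of Gata1, 2.59 ± 0.232 of Gata2 and 1.68 ± 0.149 of Gata3, so Gata2 was the most abundant and Gata1 the least. Wild-type cells had 14.6 ± 0.442 CPM per kb of Gata1 and 14.9 ± 2.81 of Gata2, levels that did not differ beyond their spread, and 0.00893 ± 0.00705 of Gata3. The Gata2 to Gata1 ratio was 4.13 ± 0.831 in mutant and 1.01 ± 0.162 in wild-type vehicle libraries. In each treatment the lowest mutant ratio was above the highest wild-type ratio, and these ratios are given without a test.

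**Figure D2:**
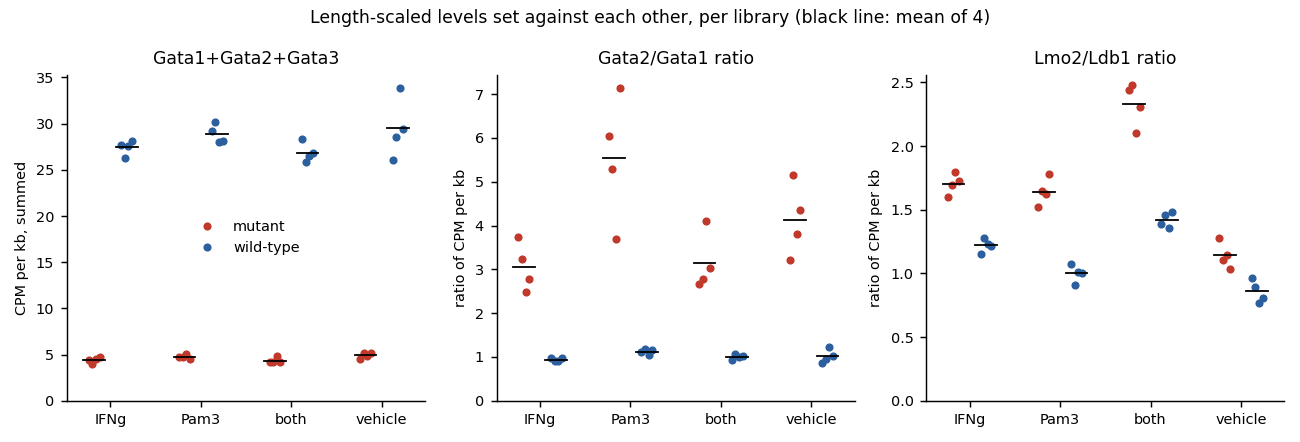
Length-scaled levels per library: the summed Gata1, Gata2 and Gata3 level in CPM per kb (left), the Gata2 to Gata1 ratio (middle) and the Lmo2 to Ldb1 ratio (right), with red points for mutant, blue for wild-type libraries and black lines for means of 4. GATA RNA is at most 5.18 CPM per kb in mutant and at least 25.8 in wild-type libraries, and the Lmo2 to Ldb1 ratio is highest in mutant cells with both agents, at 2.10 to 2.48.

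Zfpm1 (ENSMUSG00000049577.15, chromosome 8, 122282141 to 122337251) encodes FOG1, the cofactor through which GATA1 acts at many of its targets. The mutant vehicle libraries had 7.16, 9.06, 9.05 and 9.23 CPM, against 15.4, 15.6, 25.3 and 19.2 CPM in wild-type vehicle libraries. The first mutant library was low and stood apart from the rest, and the third wild-type library was the highest of its group. The groups did not overlap. Zfpm1 was lower in mutant cells with vehicle (-1.13 ± 0.13, edgeR adjusted p = 1.39e-08), with IFNg (-0.72 ± 0.13) and with both agents (-0.64 ± 0.13). With Pam3CSK4 the difference was -0.29 ± 0.12 (edgeR adjusted p = 0.0446), the groups overlapped, and the call was lost in 16 of 42 alternative settings. The unnamed gene model Gm20388 covers the same strand at 118.8 to 152.4 CPM and shares no exonic base with Zfpm1.

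The helix-loop-helix factors TAL1 and LYL1 can occupy the same place in the complex. Tal1 (ENSMUSG00000028717.12, chromosome 4, 115056426 to 115071755) had 61.2, 63.4, 61.8 and 62.8 CPM in mutant vehicle libraries, against 61.1, 66.2, 63.7 and 61.5 CPM in wild-type vehicle libraries. The ranges overlapped, and no difference was called (-0.02 ± 0.03, edgeR adjusted p = 0.647). Tal1 was lower in mutant cells under each agonist, by -0.13 ± 0.03 under IFNg, -0.33 ± 0.03 under Pam3CSK4 and -0.30 ± 0.03 under both (largest edgeR adjusted p = 8.68e-04). Lyl1 (ENSMUSG00000034041.5, chromosome 8, 84701457 to 84704715) was lower in all 4 treatments: with vehicle it had 69.0, 75.5, 72.5 and 73.2 CPM in mutant libraries, against 106.9, 100.4, 123.3 and 119.9 CPM in wild-type libraries (-0.63 ± 0.06, edgeR adjusted p = 2.49e-10). Per kilobase Lyl1 exceeded Tal1 in both lines, with a Tal1 to Lyl1 ratio of 0.343 ± 0.00842 in mutant and 0.223 ± 0.0266 in wild-type vehicle libraries.

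LMO2 and LDB1 hold the complex together, and their genes moved in opposite directions. Lmo2 (ENSMUSG00000032698.15, chromosome 2, 103957986 to 103981878) had 124.3, 121.3, 123.3 and 115.1 CPM in mutant vehicle libraries, against 116.6, 109.0, 102.8 and 109.6 CPM in wild-type vehicle libraries. It was slightly higher in mutant cells (0.14 ± 0.03, edgeR adjusted p = 4.22e-04), with overlap between 1 library of each line. Ldb1 (ENSMUSG00000025223.15, chromosome 19, 46031570 to 46045214, minus strand) had 137.4, 150.8, 148.0 and 151.6 CPM in mutant libraries, against 171.3, 174.0, 189.1 and 187.3 CPM in wild-type libraries (-0.30 ± 0.04, edgeR adjusted p = 6.45e-07). Here the groups did not overlap. Pprc1, on the opposite strand, shares 177 exonic bases with Ldb1 and stood at 37.8 CPM in mutant and 57.0 CPM in wild-type vehicle libraries. The library kit marks strand, but the strand setting of the counting is not given in the sources used here, so shared reads may be divided between the 2 genes, as they may between Gata3 and Gm13256.

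Nfe2 (ENSMUSG00000058794.12, chromosome 15, 103248212 to 103258403, minus strand), the DNA-binding subunit that pairs with small MAF proteins at globin and platelet genes, had 78.8, 87.0, 86.6 and 81.7 CPM in mutant vehicle libraries. The wild-type vehicle libraries had 95.3, 96.0, 100.8 and 101.3 CPM, all higher. The log2 fold change was -0.24 ± 0.04 (edgeR adjusted p = 6.06e-07). It was -0.31 ± 0.04 under IFNg, -0.44 ± 0.04 under Pam3CSK4 and -0.37 ± 0.04 under both agents.

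Transcript length as weighted by isoform use was nearly constant. Of 9 genes with at least 10 counts in each library, 3 had the same length in all libraries, and the widest spread between libraries was 3.64% of the shortest.

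Of 32 partners and co-regulators, 29 could be tested. With vehicle, 24.4% of all genes tested were called higher and 29.3% lower in mutant cells, also the shares for the smaller lists below. Of the 29, 7 were higher and 10 lower, with a median log2 fold change of -0.04, against -0.01 over all genes. The highest were the E protein gene Tcf4, which encodes a possible partner of TAL1 (0.52 ± 0.04), and the ETS factor gene Erg (0.45 ± 0.05). The lowest were Bcl11a, a zinc finger repressor of fetal globin genes (-1.35 ± 0.10), and Lmo4, a relative of LMO2 (-0.87 ± 0.04). Of 5 other GATA family genes only Trps1, which encodes a GATA-type repressor, could be tested, at 83.7 ± 4.20 CPM in mutant and 70.6 ± 6.21 CPM in wild-type cells (0.24 ± 0.06). Of 6 tested relatives of NFE2 and its MAF and BACH partners, 1 was higher and 3 were lower, Mafg the lowest at -0.31 ± 0.04. Of 9 other KLF genes, 1 was higher and 4 were lower, and Klf9 was the lowest at -0.41 ± 0.04. Of 3 tested ID genes, which encode inhibitors of helix-loop-helix proteins, 2 were lower, Id1 by -0.86 ± 0.09 and Id3 with 2 counts in mutant and 53 counts in wild-type vehicle libraries, 28.52-fold lower (95% exact interval 7.517 to 241.7, for counting error only).

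Listed genes of red cells, mast cells and megakaryocytes were mostly lower. The lists also serve as markers of these cell types, and action of GATA factors on each gene was not tested. With vehicle, 29.3% of all genes tested were called lower and 24.4% higher in mutant cells. Of 28 tested red cell genes, 25 were lower and 1 was higher in mutant cells, with a median log2 fold change of -5.30, or -4.57 with genes absent from the mutant libraries set to the bound that 3 counts over the group allow. Tspo2, a membrane protein of red cell precursors, had no counts in mutant and 642 counts in wild-type vehicle libraries, at least 230.4-fold lower. Red cell genes with 1 CPM or more numbered 10 of 31 in mutant and 24 of 31 in wild-type cells, and 8 had no counts in mutant cells. The summed level of the red cell list, most of it Car2 and Tfrc, was 1099 to 1187 CPM in mutant and 1384 to 1570 CPM in wild-type vehicle libraries. With Pam3CSK4 it was 1857 to 2010 CPM in mutant and 1712 to 1753 CPM in wild-type libraries, and Car2 and Tfrc were among the 4 genes then higher in mutant cells. Of 8 tested mast cell genes, 7 were lower (median -3.29), and Mitf, a mast cell and pigment cell factor, was higher (0.82 ± 0.14). Of 12 tested megakaryocyte genes, 7 were lower and 4 higher (median -0.89). Itga2b, the integrin chain of platelets, was at 1.93 ± 0.321 CPM in mutant and 13.3 ± 1.02 CPM in wild-type cells, whereas its partner chain Itgb3 was higher in mutant cells (1.25 ± 0.05).

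**Figure D3:**
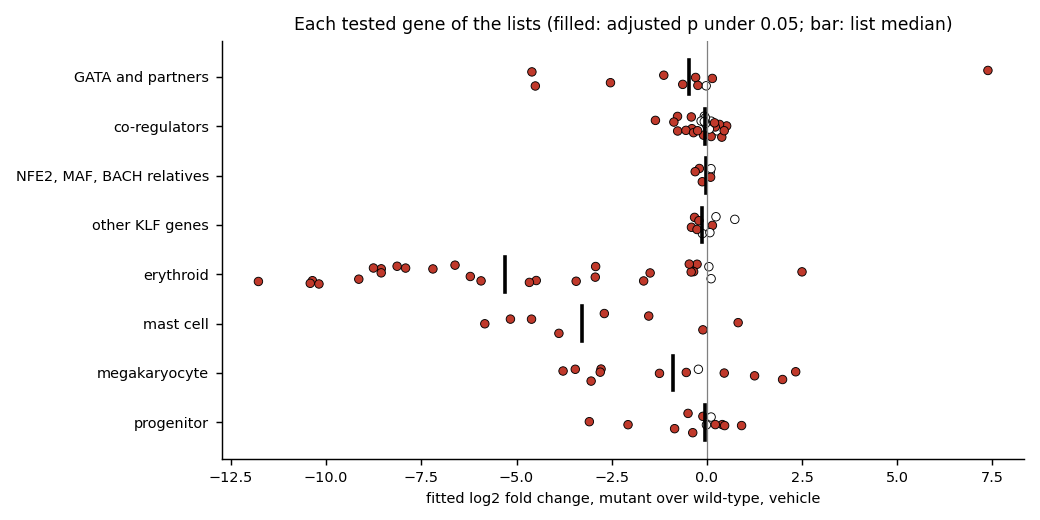
Fitted log2 fold changes of mutant over wild-type vehicle libraries (x axis) for each tested gene of 8 lists (rows); filled points had an edgeR adjusted p under 0.05 and black bars are list medians, -5.30 for red cell and -3.29 for mast cell genes. The far right point of the top row is Gata3; points of genes with no or few counts in 1 line depend on the fit's handling of low counts and do not give a size.

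Over the 8 group means, the genes whose pattern was most like Gata2 were Fcgr3, Anxa2, Cma1, Fam129a and Kdm5d (Pearson r of log2 CPM 0.9989 to 0.9997, n = 8 group means). Those most like Gata1 were Cldn12, Capn1, Il1rl1, Alox5 and Ank1 (0.9981 to 0.9989). The difference between the lines dominates these patterns: 1491 of 9209 genes had r over 0.9 with Gata2 and 1510 had r over 0.9 with Gata1, so the order among them carries little.

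The second question was whether the agonists changed these genes within each line. The 3 treatments of a line share its vehicle libraries, so they are set side by side and not counted as repeats of each other. Gata1 and Gata2 were not called by edgeR in any of the 6 comparisons, while Lmo2 rose and Tal1 fell in all 6. In mutant cells 5 of the 10 genes were called with IFNg (1 higher, 4 lower), against 33.2% of genes tested (18.3% higher, 14.9% lower). With Pam3CSK4 6 were called (2 higher, 4 lower), against 24.3% (11.5% higher, 12.8% lower), and with both agents 7 (1 higher, 6 lower), against 43.8% (23.7% higher, 20.1% lower). In wild-type cells 6 were called with IFNg (1 higher, 5 lower), against 35.4% (17.8% higher, 17.6% lower). With Pam3CSK4 2 were called (1 higher, 1 lower), against 22% (10.4% higher, 11.7% lower), and with both agents 6 (1 higher, 5 lower), against 43.7% (21.2% higher, 22.4% lower). Treated and vehicle libraries did not overlap for 3, 5 and 5 genes in mutant cells with IFNg, Pam3CSK4 and both agents, against 32.4%, 26.5% and 39.5% of all genes. In wild-type cells these were 5, 3 and 5 genes, against 27.8%, 18.7% and 34.5%. The median log2 change of the 10 genes lay between -0.20 and -0.11 in the 6 comparisons, and that of all genes between -0.03 and 0.00.

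**Figure D4:**
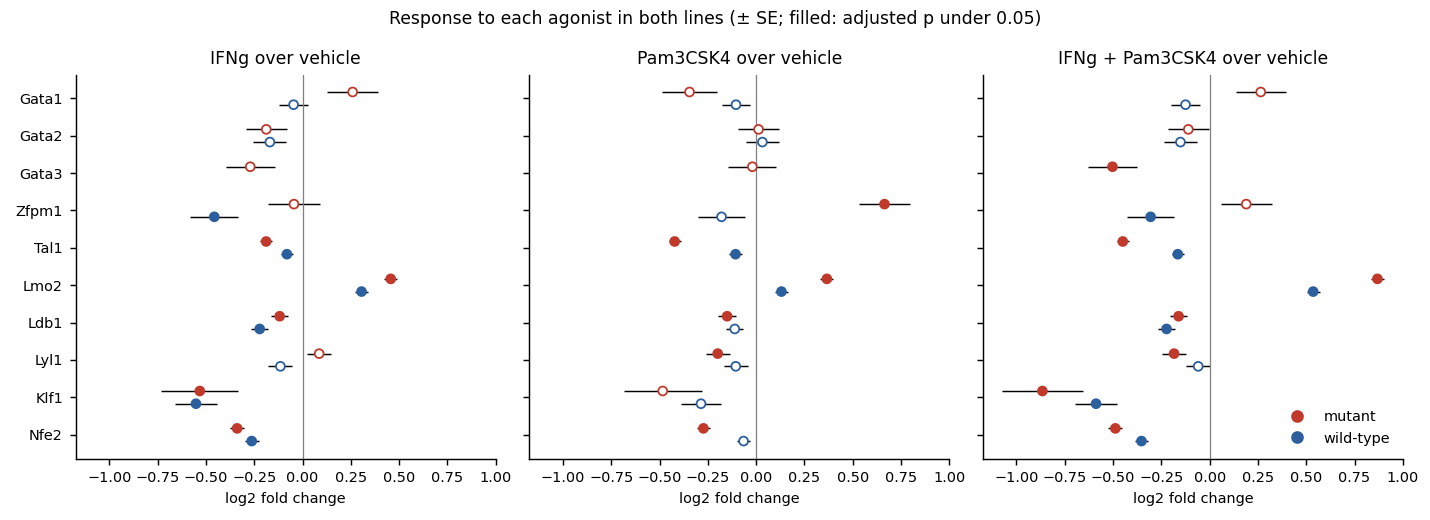
Log2 fold changes ± SE over vehicle for IFNg, Pam3CSK4 and both agents, with mutant (red) above wild-type (blue) in each row; filled points had an edgeR adjusted p under 0.05. Lmo2 is right of 0 in each panel, up to 0.87 in mutant cells with both agents, and Zfpm1 in mutant cells with Pam3CSK4 stands at 0.66; wild-type Gata3, with 6 counts or fewer per group, is not drawn.

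Of the 3 GATA genes, edgeR called Gata3 alone, in mutant cells with both agents. With IFNg, Gata2 averaged 6.58 ± 0.408 CPM in treated and 7.52 ± 0.679 CPM in vehicle mutant cells, and 38.6 ± 1.89 CPM in treated and 43.4 ± 8.27 CPM in vehicle wild-type cells. Neither change was called (mutant -0.19 ± 0.11, wild-type -0.17 ± 0.09). Without the first wild-type vehicle library, which has the lowest Gata2 level of its group, Gata2 was called lower with IFNg (-0.26, edgeR adjusted p = 0.011) and with both agents (-0.24, edgeR adjusted p = 0.0145) in wild-type cells. Gata1 in mutant cells was -0.34 ± 0.14 with Pam3CSK4 (edgeR adjusted p = 0.0786), and it was called lower without the third Pam3CSK4 library (-0.59, edgeR adjusted p = 0.00257). In wild-type cells with both agents it was called lower by DESeq2 (-0.13, adjusted p = 0.0332) and limma voom (-0.13, adjusted p = 0.0274) but not by edgeR (-0.12 ± 0.07, adjusted p = 0.181). Gata3 in mutant cells had 3.06, 4.05, 3.76 and 3.29 CPM with both agents, against 4.51, 5.49, 4.81 and 5.30 CPM with vehicle. The 2 groups did not overlap, and the fall was called (-0.50 ± 0.13, edgeR adjusted p = 0.0013). With IFNg mutant Gata3 was -0.27 ± 0.13 and was not called by edgeR (adjusted p = 0.0975), while it was called lower by DESeq2 (-0.29, adjusted p = 0.0311), by limma voom (-0.27, adjusted p = 0.022) and by edgeR with only the groups of the contrast (-0.27, adjusted p = 0.0466).

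Lmo2 was called higher in all 6 comparisons. In mutant cells it had 221.2, 219.4, 214.5 and 228.6 CPM with both agents, against 124.3, 121.3, 123.3 and 115.1 CPM with vehicle (0.87 ± 0.03, edgeR adjusted p = 8.88e-22). In wild-type cells it had 161.2, 155.4, 157.0 and 161.6 CPM with both agents, against 116.6, 109.0, 102.8 and 109.6 CPM with vehicle (0.54 ± 0.03, edgeR adjusted p = 1.80e-15). In each line all treated libraries were above all vehicle libraries. IFNg alone raised it by 0.46 ± 0.03 in mutant and 0.31 ± 0.03 in wild-type cells, and Pam3CSK4 alone by 0.37 ± 0.03 in mutant and 0.13 ± 0.03 in wild-type cells, the last call lost in 2 of 42 settings. Ldb1 was called higher in none of the 6, and the Lmo2 to Ldb1 ratio per kilobase was 2.33 ± 0.169 with both agents and 1.14 ± 0.102 with vehicle in mutant cells, and 1.42 ± 0.0614 with both agents and 0.859 ± 0.0878 with vehicle in wild-type cells.

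Tal1 fell under each agonist. Mutant cells had 48.0, 48.2, 45.3 and 44.6 CPM with Pam3CSK4, against 61.2, 63.4, 61.8 and 62.8 CPM with vehicle (-0.42 ± 0.03, edgeR adjusted p = 5.96e-13). No library overlapped. In mutant cells it also fell with IFNg (-0.19 ± 0.03) and with both agents (-0.45 ± 0.03). In wild-type cells the changes were -0.08 ± 0.03 under IFNg, -0.11 ± 0.03 under Pam3CSK4 and -0.16 ± 0.03 under both agents. The first was lost in 7 and the second in 4 of 42 alternative settings.

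Nfe2 fell in 5 of the 6 comparisons. Mutant cells had 58.2, 60.5, 63.5 and 55.9 CPM with both agents, against 78.8, 87.0, 86.6 and 81.7 CPM with vehicle (-0.49 ± 0.04, edgeR adjusted p = 8.13e-14). Wild-type cells had 76.4, 75.4, 80.2 and 76.0 CPM with both agents, against 95.3, 96.0, 100.8 and 101.3 CPM with vehicle (-0.35 ± 0.04, edgeR adjusted p = 3.89e-10). Treated and vehicle libraries stood apart in both lines. With Pam3CSK4 alone Nfe2 fell in mutant cells (-0.27 ± 0.04) and was not called in wild-type cells (-0.06 ± 0.04, edgeR adjusted p = 0.194).

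Klf1 fell with both agents in the 2 lines, to 0.380 ± 0.109 CPM in treated mutant cells, against 0.680 ± 0.109 CPM with vehicle (-0.87 ± 0.21, edgeR adjusted p = 8.59e-04), and to 10.9 ± 0.511 CPM in treated wild-type cells, against 16.4 ± 1.78 CPM with vehicle (-0.59 ± 0.11, edgeR adjusted p = 3.00e-05). With IFNg the change was -0.53 ± 0.20 in mutant cells, a call lost in 8 of 42 settings, and -0.55 ± 0.11 in wild-type cells. Ldb1 fell in 5 comparisons by -0.22 to -0.12, the exception being wild-type Pam3CSK4 (-0.11 ± 0.04, edgeR adjusted p = 0.0708), and its IFNg call in mutant cells was lost in 7 settings. Lyl1 fell in mutant cells with Pam3CSK4 (-0.20 ± 0.06) and with both agents (-0.18 ± 0.06), calls lost in 4 and 2 settings. It was not called in wild-type cells.

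Zfpm1, the FOG1 gene, was called higher in mutant cells with Pam3CSK4 alone and lower in wild-type cells with IFNg. In mutant cells it had 15.7, 12.2, 13.4 and 13.2 CPM with Pam3CSK4, against 7.16, 9.06, 9.05 and 9.23 CPM with vehicle. All treated libraries were higher, and the rise was called (0.66 ± 0.13, edgeR adjusted p = 2.74e-04). With both agents it was not called in mutant cells, at 8.43, 9.77, 10.5 and 10.7 CPM (0.19 ± 0.13, edgeR adjusted p = 0.261). In wild-type cells it fell with IFNg (-0.46 ± 0.12, edgeR adjusted p = 0.00493) and with both agents (-0.31 ± 0.12, edgeR adjusted p = 0.0465). The second wild-type call was lost in 26 of 42 settings and was -0.12 (edgeR adjusted p = 0.364) without the third vehicle library, the one with high Zfpm1.

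In wild-type cells the share of counts from structural RNAs (mitochondrial transcripts and small structural RNAs) moved with treatment. It was 15.9 ± 1.87% with IFNg, 14.8 ± 1.47% with Pam3CSK4, 13.6 ± 0.610% with both agents and 23.96 ± 4.17% with vehicle. In mutant cells it was 21.1 ± 3.89%, 27.3 ± 2.12%, 23.0 ± 4.77% and 25.8 ± 1.78% in the same order. With that share as a covariate the wild-type calls numbered 3 under IFNg, 0 under Pam3CSK4 and 3 under both agents. Over all genes tested, 2794, 176 and 3638 were then called in the same order, against 5265, 3277 and 6491 without the covariate. Wild-type Tal1 with Pam3CSK4 was -0.14 (edgeR adjusted p = 0.102) with the covariate and -0.11 without it, and Lmo2 was 0.16 (edgeR adjusted p = 0.0551) with it and 0.13 without it. With the covariate Klf1 was -0.22 with IFNg and -0.16 with both agents, and Ldb1 -0.13 and -0.10, and none of these 4 was called. Zfpm1 with IFNg was -0.42 and was not called (edgeR adjusted p = 0.0804). Wild-type vehicle libraries 1 and 4, which have the highest structural share of their group, were left out together after the data were seen. Gata2 was then called lower in wild-type cells with IFNg (-0.30, edgeR adjusted p = 0.0111) and with both agents (-0.28, edgeR adjusted p = 0.0134). Wild-type Gata3 was also called lower with IFNg, where it rests on 1 count.

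Of 29 tested co-regulators, 12 were called in mutant cells with Pam3CSK4, 7 higher and 5 lower, against 24.3% of all genes tested. In wild-type cells 8 were called, all higher, against 22%. Gfi1b, a repressor of red cell and megakaryocyte precursors, averaged 46.3 ± 2.46 CPM in mutant cells with Pam3CSK4, against 17.5 ± 1.54 CPM with vehicle (1.41 ± 0.07, edgeR adjusted p = 1.52e-17). Bcl11a averaged 5.85 ± 0.576 CPM in mutant cells with Pam3CSK4, against 2.60 ± 0.384 CPM with vehicle (1.17 ± 0.11). Erg rose with IFNg in mutant (0.55 ± 0.05) and wild-type cells (0.62 ± 0.05).

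The GATA family gene Trps1 rose in all 6 comparisons, by 0.31 to 0.41. Among NFE2 partners Maff, a small MAF protein, rose most: with both agents it averaged 10.8 ± 0.544 CPM, against 2.45 ± 0.294 CPM with vehicle, in mutant cells, and 7.07 ± 0.431 CPM, against 2.32 ± 0.247 CPM with vehicle, in wild-type cells. Id1 rose with IFNg in mutant (1.57 ± 0.09) and wild-type cells (1.08 ± 0.09). Of 9 other KLF genes, 7 were called in mutant cells with IFNg, 3 higher and 4 lower, against 33.2% of all genes, and 4 in wild-type cells, 2 higher and 2 lower, against 35.4%. In mutant cells Klf6 rose (0.90 ± 0.08) and Klf11 fell (-1.66 ± 0.13).

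The third question was whether the responses differed between the lines, tested as mutant response minus wild-type response. For Pam3CSK4 4 of the 10 genes differed, 2 higher and 2 lower, against 26.6% of genes tested (14.3% higher, 12.3% lower). For both agents 2 differed, 1 higher and 1 lower, against 15.8% (8.8% higher, 6.99% lower). For IFNg none of the 10 was called by edgeR, DESeq2 or limma voom, against 1.65% of genes in edgeR (0.827% higher, 0.82% lower). Among the 10, Lmo2 had the lowest p (0.15 ± 0.05, edgeR adjusted p = 0.106), and it was called without the third wild-type vehicle library (0.18, edgeR adjusted p = 0.0316).

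The Pam3CSK4 response of Zfpm1 was 0.84 ± 0.18 higher in mutant than in wild-type cells (edgeR adjusted p = 9.52e-04). Beside the mutant values above, wild-type cells had 16.9, 18.1, 14.8 and 16.9 CPM with Pam3CSK4, against 15.4, 15.6, 25.3 and 19.2 CPM with vehicle. The wild-type groups overlapped and their change was not called (-0.18 ± 0.12, edgeR adjusted p = 0.326). For both agents the difference was 0.50 ± 0.18 and was not called (edgeR adjusted p = 0.0606). It was called in 4 of 42 alternative settings, DESeq2 (0.48, adjusted p = 0.0242) among them.

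The response of Tal1 was lower in mutant cells by -0.32 ± 0.04 for Pam3CSK4 (edgeR adjusted p = 3.22e-06) and by -0.28 ± 0.04 for both agents (edgeR adjusted p = 1.67e-05). Wild-type Tal1 was 58.8, 58.1, 59.3 and 58.3 CPM with Pam3CSK4, against 61.1, 66.2, 63.7 and 61.5 CPM with vehicle, so that mutant and wild-type cells overlapped with vehicle and stood apart with Pam3CSK4. The response of Lmo2 was higher in mutant cells by 0.24 ± 0.05 for Pam3CSK4 (edgeR adjusted p = 3.82e-04) and by 0.33 ± 0.05 for both agents (edgeR adjusted p = 3.78e-06). The Pam3CSK4 response of Nfe2 was lower in mutant cells by -0.21 ± 0.05 (edgeR adjusted p = 0.00223), and for both agents the difference was -0.14 ± 0.05 (edgeR adjusted p = 0.0615). The 6 called differences kept their direction and their call in all 42 alternative settings, the structural RNA share as a covariate among them.

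Neither Gata1 nor Gata2 was called by edgeR in these tests. For Gata2 the difference in response was -0.02 ± 0.14 under IFNg, -0.02 ± 0.14 under Pam3CSK4 and 0.04 ± 0.14 under both agents. For Gata1 it was 0.31 ± 0.15, -0.24 ± 0.16 and 0.39 ± 0.15 in the same order, with the lowest edgeR adjusted p at 0.0727. That difference, for both agents, was called by DESeq2 (0.38, adjusted p = 0.0397), and without the third mutant Pam3CSK4 library the Gata1 difference for Pam3CSK4 was called (-0.48, edgeR adjusted p = 0.0191). Among the co-regulators 14 of 29 differed for Pam3CSK4, 7 higher and 7 lower in mutant cells. Of all genes tested 26.6% differed (14.3% higher, 12.3% lower). The higher co-regulators were led by Gfi1b (1.25 ± 0.10) and Bcl11a (1.12 ± 0.14). The lower ones were led by Tcf12, an E protein gene (-0.33 ± 0.07), and Myb, a progenitor factor (-0.33 ± 0.06). Maff also responded more in mutant cells to Pam3CSK4 (0.51 ± 0.13, edgeR adjusted p = 0.00414). Klf6 responded more in mutant cells to IFNg (0.72 ± 0.11, edgeR adjusted p = 1.29e-04) and less to Pam3CSK4 (-0.38 ± 0.12, edgeR adjusted p = 0.0136).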

How the data were processed

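Gene expression was read from 32 RSEM gene tables, 1 per library. The expected count column, as deposited by the authors, was rounded to whole numbers and used for all tests; 11.07% of non-zero values were not whole. The submitters' processing notes name STAR 2.5.2b, RSEM 1.3.0 and mm10; per the labels' protocols, libraries were stranded, from total RNA depleted of ribosomal RNA. No annotation release, trimming or strand setting is given in those sources. RSEM divides reads that fit several genes by a model, which adds error for overlapping or near-identical genes. The transcript lengths and effective lengths in the deposited tables (unit other: bases) gave levels per kilobase. The deposited TPM and FPKM columns were not used. Of 55487 identifiers, 55394 matched GENCODE vM21 with version ignored.

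Groups came from the labels: 2 genotypes by 4 treatments, 4 libraries each, 44.18 M to 71.42 M counts and 17427 to 21034 genes detected per library. Genes were filtered with filterByExpr (14869 kept, 40618 removed), scaled by TMM and fitted with edgeR 4.0.16 quasi-likelihood, robust, 1 mean per group, 24 residual degrees of freedom (robust common coefficient of variation 7.22%). Of 13 contrasts, 4 compare mutant with wild-type, 6 an agonist with vehicle, and 3 the responses. P-values were adjusted over all genes tested in a contrast, with a threshold of 0.05; the SE is the absolute log2 fold change over the square root of F. Pairs and ratios of members carry no test. Intervals are 95% exact binomial, and floors are 3 counts over a group; both cover counting error only. Structural RNA means 5563 annotated mitochondrial and small structural RNA genes.

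The 10 members, the 17 other lists, the tests and the naming rule were chosen with earlier results of these data known. The rule names the members, the 3 strongest rises and 3 strongest falls per list and comparison (called, at least 1 CPM in some group), protein-coding genes within 250 kb of the Gata2 start, and the 5 genes most like Gata2 and Gata1 among those of at least 5 CPM. Genes named from lists are a selection of these. Tcf7, Id3 and Cd3e, and Gm20388, Pprc1, 9230102O04Rik and Gm13256 as overlapping genes, were named outside it, after their values were seen.

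On simulated counts with 100 genes each changed 1.5-fold or 4-fold between mutant and wild-type vehicle libraries, 90% and 100% were called. There were 9 false calls among 14497 genes. The changed genes were drawn only from those above a minimum mean count, and all others were left unchanged. These rates therefore do not cover genes with low mean counts. Alternatives were RLE size factors, DESeq2 1.42.0, limma 3.58.1 voom, other filters, the contrast's groups alone, structural RNA left out or as a covariate, a replicate block, and each library left out. R 4.3.3 and Python 3.11.15 were used.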

Additional observations from a re-analysis of the deposited data

Results flagged for a closer look

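In 6 of 80 gene and treatment groups of 4 libraries, 1 library stood apart from the other 3 by Dixon's test; chance flags about 1 in 20 groups. Gata1 was low in 1 wild-type Pam3CSK4 library, at 21.81 CPM. Zfpm1 was low in 1 mutant vehicle library, at 7.157 CPM. Lmo2 was high in 1 mutant Pam3CSK4 library, at 162.7 CPM, and Ldb1 was high in 1 mutant IFNg library, at 144.0 CPM. For Gata3 in wild-type cells, 1 IFNg library had 0.01471 CPM where the others had no counts, and 1 Pam3CSK4 library had 0.0 CPM where the others had 1 count each.

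The response to an agonist differed between the lines by a test of the difference in 6 cases. For Pam3CSK4 these were Zfpm1 (0.8434), Tal1 (-0.3152), Lmo2 (0.2351) and Nfe2 (-0.2077), given as log2 response of mutant minus wild-type cells. For both agents they were Tal1 (-0.2848) and Lmo2 (0.3327). The structural RNA share was 27.3% with Pam3CSK4 and 25.8% with vehicle in mutant cells, and 14.8% with Pam3CSK4 and 23.96% with vehicle in wild-type cells. All 6 differences were also called with that share as a covariate. In wild-type cells the share moved with treatment, so the covariate cannot separate them, and the part of the share in these differences was not tested.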

How the results depend on the processing

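For the 10 genes under 42 other settings, 5322 values kept direction and call, 82 lost and 53 gained a call, and none reversed. With structural RNA share fitted as a covariate, Ldb1 and Klf1 lost their IFNg calls in mutant cells. In wild-type cells 3, 0 and 3 genes were called for IFNg, Pam3CSK4 and both agents, with the calls over all genes given above. The wild-type Pam3CSK4 changes of Tal1 (-0.14) and Lmo2 (0.16) were then no smaller than without it (-0.11 and 0.13), and 176 of all genes were called there, against 3277. Other wild-type changes shrank with the covariate. Klf1 was -0.22 with IFNg and -0.16 with both agents, against -0.55 and -0.59 without the covariate. Ldb1 was -0.13 and -0.10 in the same order, against -0.22 and -0.22. With only the groups of the contrast, Tal1 and Lmo2 lost and Klf1 gained a call for Pam3CSK4 in wild-type cells. DESeq2 added calls for Gata1, Zfpm1 and Nfe2 in the difference of the response to both agents. Leaving out 1 library at a time gave 3 to 5 calls for IFNg in mutant cells and 0 to 1 for the difference in the IFNg response. The shares of all genes called in those fits are not given here. Gains included Klf1 for wild-type Pam3CSK4, called in 16 settings (edgeR adjusted p = 0.0502), and Nfe2 for the difference with both agents, called in 8. The cause was not tested. Replicate numbers did not pair the libraries: over 112 same-numbered pairs the median correlation of deviations was 0.0087, and 8 of 32 libraries correlated best with their own number. With the replicate block, Zfpm1 lost its call for mutant over wild-type with Pam3CSK4 (edgeR adjusted p = 0.0504). It also lost its call for both agents in wild-type cells (edgeR adjusted p = 0.0602). Nfe2 gained a call for the difference with both agents (edgeR adjusted p = 0.0483), and no other call of the 10 genes changed. Counts of under 50 in each mutant library limit Klf1 there, and Gata3 in wild-type cells rests on 6 counts or fewer per group.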
